A study of Mus musculus with 8 samples.

Results

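The leukaemia inhibitory factor (LIF) receptor and STAT3 pathway was represented by 9 genes, chosen by symbol: Lif, Lifr, Il6st, Jak1, Jak2, Stat3, Socs3, Ptpn11 and Bcl3. They were chosen with earlier results of these data known. All of their 25 probe sets that carry a single gene symbol were taken, out of 34945 such probe sets for 18193 genes on the arrays. Mouse embryonic stem cells (ESCs), pluripotent cells grown from the blastocyst, were profiled on 8 Affymetrix arrays, with 1 array per sample. There were 3 arrays of released cells (label Resc), treated with the MYC inhibitor 10058-F4 at 64 μM for 60 h and then cultured for 48 h in 2i medium without it. There were 2 arrays of inhibitor-treated cells (label MYCi), which had 64 μM of 10058-F4 for 60 h, and 3 arrays of control cells that had the solvent DMSO alone for 60 h. 10058-F4 is a small molecule that disrupts the pairing of MYC with MAX. The labels name no genotype, strain or line. Cells of all groups were propagated on gelatine without feeders or serum, in a medium that already contains LIF, with the MEK inhibitor PD0325901 at 1 μM and the GSK3 inhibitor CHIR99021 at 3 μM. LIF protein was therefore supplied from outside, and the branch of its signal that runs through MEK was blocked by a drug in all groups.

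LIF binds a receptor made of the LIF receptor chain, encoded by Lifr, and the shared signalling chain gp130, encoded by Il6st. The kinases JAK1 and JAK2 on these chains phosphorylate STAT3, which enters the nucleus and activates its target genes, and in mouse ESCs this sustains self-renewal. SOCS3, the product of a STAT3 target gene, binds gp130 and JAK and shuts the signal off again, and SHP2, encoded by Ptpn11, links gp130 to the ERK branch. BCL3, a nuclear protein of the IκB family, is itself a known target of LIF and STAT3 in mouse ESCs. In mice, gp130 is needed for the epiblast to survive embryonic diapause, the arrest of the blastocyst before implantation.

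The values below are log2 expression values, and a difference of 1 on this scale is a factor of 2. They are relative within an array, so a change of total RNA per cell is not visible. Where a gene has several probe sets, that of highest average signal across the 8 arrays is called its main probe set, and levels are not compared between probe sets. A gene rose or fell where the adjusted p of its main probe set in limma, corrected over all 34945 probe sets, was under 0.05. Changes are given ± the moderated standard error of that fit, from 2 inhibitor-treated, 3 released and 3 DMSO arrays. Nothing in the labels tells whether a group's arrays stem from different cultures, so the p-values rest on a spread that may be technical alone. The 3 comparisons share arrays with each other and are not independent. No DMSO or inhibitor-treated array had the further 48 h of culture. In both comparisons with released cells, withdrawal of the inhibitor and longer culture therefore cannot be told apart.

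The arrays matched their label as ESCs. Pou5f1 lay between 12.11 and 12.41 on all 8 arrays, Sox2 between 11.24 and 11.46 and Nanog at 11.79 or above, all of them defining pluripotency factors. The summed level of the 8 ESC markers ran from 14.13 to 14.20 on released arrays, was 14.08 on both inhibitor-treated arrays and ran from 14.12 to 14.13 on DMSO arrays. With the inhibitor 2 of the 8 rose, Zfp42 (0.69 ± 0.08) and Esrrb (0.20 ± 0.06), and 3 fell, Dppa3 (-1.08 ± 0.08), Tdgf1 (-0.38 ± 0.07) and Fgf4 (-0.24 ± 0.07). The Esrrb call ended without inhibitor-treated replicate 1 (adjusted p = 0.153) or 2 (0.0764) or DMSO replicate 1 (0.0689) or 3 (0.0758) and with the average of its probe sets (0.999), and that of Fgf4 without inhibitor-treated replicate 2 (0.123). In released against DMSO cells 0 rose and 1 fell, again Dppa3 (-1.33 ± 0.07). The bacterial control probe sets named Trpn, which have no target in the cells, lay between 2.15 and 2.95. Markers of fibroblasts and feeder cells were low: the summed level of 8 of them ran from 6.65 to 6.67 on released arrays, from 6.44 to 6.58 on inhibitor-treated arrays and from 6.55 to 6.69 on DMSO arrays. Markers of trophectoderm, the outer layer of the blastocyst, moved with the inhibitor. Their summed level ran from 9.35 to 9.54 on released arrays, from 11.68 to 11.73 on inhibitor-treated arrays and from 9.87 to 10.03 on DMSO arrays. Of these 8 markers 5 rose and 0 fell with the inhibitor. The keratin genes Krt18 (4.996 ± 0.15), Krt8 (3.24 ± 0.09) and Krt7 (1.10 ± 0.20) rose. Among the transcription factor genes, Eomes (2.23 ± 0.07) and Gata3 (1.28 ± 0.12) rose, and Cdx2, Elf5 and Tfap2c did not pass. Elf5 lay near the control level (2.97 with the inhibitor and 2.89 with DMSO). The part of these genes in the results below was not tested.

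With the inhibitor, both JAK kinase genes, Stat3 and its feedback gene Socs3 were higher than with DMSO, and the receptor gene Lifr and the target gene Bcl3 were lower. The largest differences were those of Jak2, which was 1.92-fold higher, and of Bcl3, which was 1.93-fold lower. Stat3, Socs3 and Jak1 were 1.33-fold, 1.30-fold and 1.30-fold higher, and Lifr was 1.30-fold lower. Of the 9 genes, 5 rose and 2 fell, the fifth rise being that of Il6st, which passed narrowly (limma adjusted p = 0.0481). Of all 18193 main probe sets 39.6% passed the same test, 18.5% upward and 21.1% downward. These shares include probe sets of low signal, whereas the main probe sets of the 9 genes ranged from the 54th to the 95th percentile of signal. Without probe sets below the 30th percentile, 52.3% of all probe sets left passed with the inhibitor. The share was 52% on release and 12.5% between released and DMSO cells. For 9 of the 9 genes the inhibitor-treated arrays were all above or all below the DMSO arrays, as for 60.5% of all main probe sets. The median log2 change of the 9 genes was 0.20, against -0.06 over all main probe sets, and their median absolute change was 0.38, against 0.19. Because the 9 genes were chosen with earlier results of these data known, setting them against all probe sets is not a test. The median of 0.20 is the value of Il6st, which turned to -0.02 with the mean of its probe sets. In these bulk samples, a change in the number of cells that express a gene and a change in RNA per cell cannot be told apart.

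After 48 h without the inhibitor, Socs3 fell 2.14-fold relative to inhibitor-treated cells, Jak2 1.64-fold, Lif 1.43-fold and Stat3 1.38-fold, and Bcl3 rose 1.39-fold. Of the 9 genes 2 rose and 6 fell, and Ptpn11 did not pass. Of all main probe sets 39.7% passed here, 21.2% upward and 18.5% downward. The arrays did not overlap for 8 of the 9 genes and for 61.9% of all main probe sets. The count of 8 was 6 without inhibitor-treated replicate 1, 5 without inhibitor-treated replicate 2 (1 rose and 4 fell), 6 without released replicate 2 and 7 without released replicate 1 or 3.

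Between released and DMSO cells, fewer of the genes passed. Socs3 was 1.65-fold lower and Bcl3 was 1.39-fold lower, so 0 of 9 rose and 2 fell, where 7.08% of all main probe sets passed, 3.79% upward and 3.29% downward. Since fewer of all probe sets passed, the adjustment asked for a smaller unadjusted p here. Il6st passed with the inhibitor at an unadjusted limma p of 0.0178, while Lif at 0.00332 did not pass between released and DMSO cells. The arrays did not overlap for 7 of the 9 genes and for 28.6% of all main probe sets. Stat3 differed by -0.06 ± 0.06 (limma adjusted p = 0.64), with a 95% interval from -0.19 to 0.07, and its 3 released arrays still all lay below its 3 DMSO arrays. The size of the Socs3 difference was above that of 99.2% of all 34945 probe sets in this comparison, and that of Bcl3 above 97.6%.

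**Figure D1:**
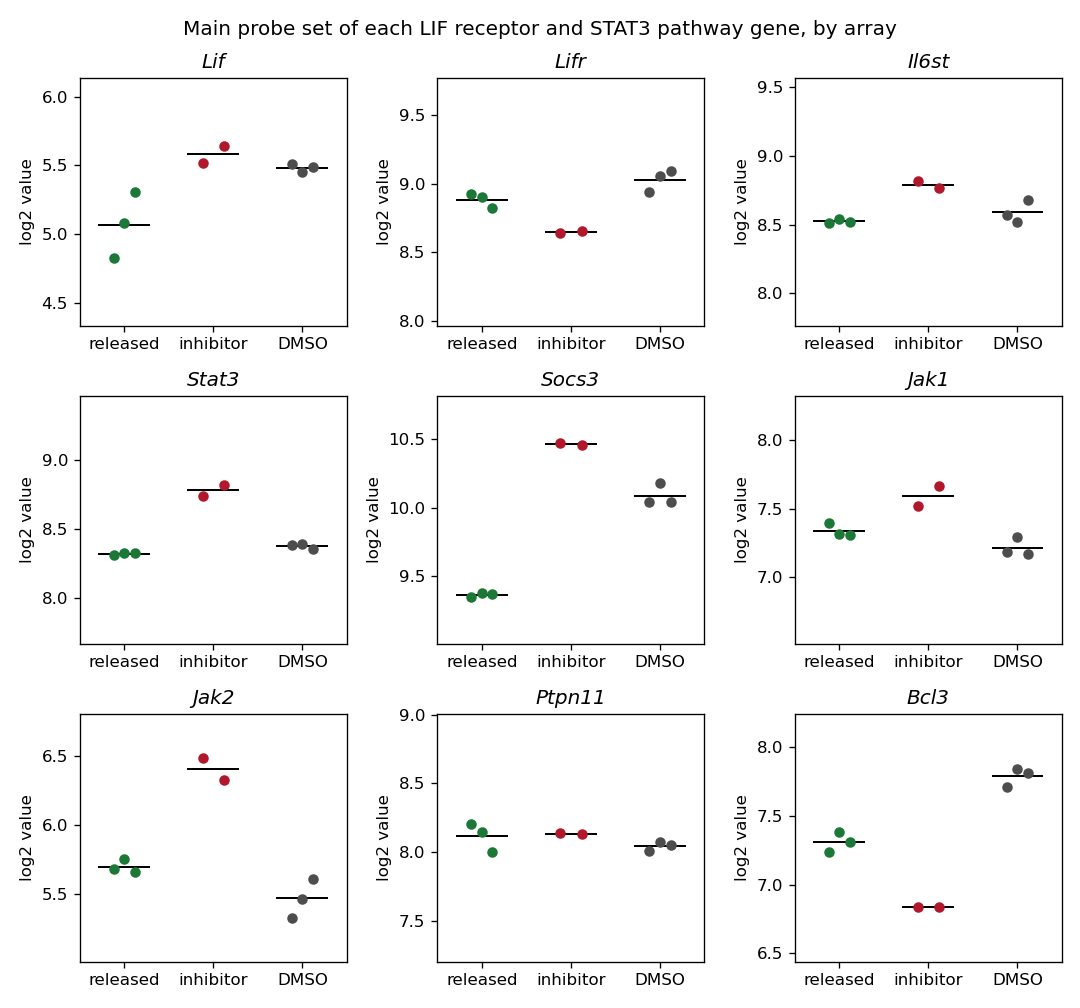
Log2 expression values (vertical axis, 1.8 units high in every panel) of the main probe set of each of the 9 genes on 3 released, 2 inhibitor-treated and 3 DMSO arrays, with 1 point per array and a bar at the group mean. Socs3 is highest on the inhibitor-treated arrays and lowest on the released arrays, Bcl3 is lowest on the inhibitor-treated arrays, and the groups of Ptpn11 lie close together.

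Lif encodes the ligand itself, which the medium also supplied. The main probe set read 4.82, 5.08 and 5.30 on released arrays, 5.52 and 5.65 on inhibitor-treated arrays and 5.51, 5.45 and 5.49 on DMSO arrays. All released arrays lay below all others, and the released arrays were also the most spread. Lif did not pass between inhibitor-treated and DMSO cells (0.10 ± 0.12, limma adjusted p = 0.56), with a 95% interval from -0.17 to 0.37. It fell on release relative to inhibitor-treated cells (-0.51 ± 0.12, limma adjusted p = 0.00693), a call lost without inhibitor-treated replicate 2 (0.0648) and when both Lif probe sets were averaged (-0.10, adjusted p = 0.291). Released against DMSO cells, the difference of -0.41 ± 0.11 stood at the threshold (limma adjusted p = 0.050014) and did not pass. It passed under 7 of 18 alternatives, among them without released replicate 3 (adjusted p = 0.0159). The second Lif probe set, at a lower signal, passed in none of the 3 comparisons.

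All 3 probe sets of Lifr fell with the inhibitor. The main probe set read 8.92, 8.90 and 8.82 on released arrays, 8.64 and 8.66 on inhibitor-treated arrays and 8.94, 9.06 and 9.09 on DMSO arrays. The groups did not overlap, and the released arrays lay between the other groups. Lifr fell with the inhibitor by 0.38 ± 0.07 on the log2 scale (limma adjusted p = 0.00228), and its other probe sets fell by 0.51 ± 0.11 and 0.72 ± 0.13. On release it rose by 0.23 ± 0.07 relative to inhibitor-treated cells (limma adjusted p = 0.0307). This call ended without inhibitor-treated replicate 1 (adjusted p = 0.121) or 2 (0.104) and without released replicate 1 (0.0821) or 2 (0.0746). The probe set 1450207_at gave a larger rise on release (0.73 ± 0.11, limma adjusted p = 0.000356), which kept its call under 16 of 16 alternatives. Between released and DMSO cells the main probe set did not pass (-0.15 ± 0.07, limma adjusted p = 0.242). The probe set 1425107_a_at did, narrowly (-0.45 ± 0.12, limma adjusted p = 0.0487), and lost its call under 10 of 16 alternatives. It lost it without any 1 array other than DMSO replicate 2, at adjusted p from 0.073 to 0.145.

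Il6st, which encodes gp130, gave probe sets that disagreed. Signal of the main probe set was 8.51, 8.54 and 8.52 on released arrays, 8.82 and 8.77 on inhibitor-treated arrays and 8.57, 8.52 and 8.68 on DMSO arrays. The inhibitor-treated arrays were the highest, and released and DMSO arrays overlapped. The rise with the inhibitor was 0.20 ± 0.07 (limma adjusted p = 0.0481). It turned to -0.02 with the mean of all 4 probe sets and lost its call without any 1 array other than DMSO replicate 3, at adjusted p from 0.0641 to 0.2. The probe set 1437303_at fell in the same comparison (-0.39 ± 0.11, limma adjusted p = 0.0209), so Il6st was the 1 gene among the 9 with calls in opposite directions. That fall ended without inhibitor-treated replicate 2 (adjusted p = 0.179) and without DMSO replicate 1 (0.0614). On release, the main probe set fell by 0.27 ± 0.07 (limma adjusted p = 0.0141), a call lost without inhibitor-treated replicate 1 (0.0886) and when all 4 probe sets were averaged (-0.11, adjusted p = 0.157). The probe set 1460295_s_at fell as well, by 0.38 ± 0.09. No Il6st probe set passed between released and DMSO cells.

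Jak2, which encodes one of the receptor-bound kinases, rose most of the 9 genes. By the main probe set it read 5.68, 5.75 and 5.66 on released arrays, 6.49 and 6.33 on inhibitor-treated arrays and 5.32, 5.46 and 5.61 on DMSO arrays. The groups did not overlap: the inhibitor-treated arrays were far above the rest, and the released arrays lay just above the DMSO arrays. Jak2 rose by 0.94 ± 0.09 with the inhibitor (limma adjusted p = 2.83e-05) and fell by 0.71 ± 0.09 on release (limma adjusted p = 0.00019). Its second probe set changed by 1.13 ± 0.15 and -0.82 ± 0.15 in these comparisons. These 4 calls held under each alternative tried. Between released and DMSO cells the main probe set differed by 0.23 ± 0.08 and did not pass (limma adjusted p = 0.144), but with the mean of both probe sets it did (0.27, adjusted p = 0.0414).

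Jak1, the kinase that gp130 signalling depends on most, moved less. On the main probe set it read 7.40, 7.31 and 7.31 on released arrays, 7.52 and 7.67 on inhibitor-treated arrays and 7.19, 7.29 and 7.17 on DMSO arrays. No group overlapped another, with the released arrays in the middle. It rose by 0.38 ± 0.08 with the inhibitor (limma adjusted p = 0.00319), a call lost when all 3 probe sets were averaged (0.20, adjusted p = 0.0683). Neither of the other probe sets passed. It fell by 0.25 ± 0.08 on release (limma adjusted p = 0.0268), and this call ended without inhibitor-treated replicate 2 (0.205) and without released replicate 2 (0.0693) or 3 (0.0754). Released against DMSO cells, the difference of 0.12 ± 0.07 did not pass (limma adjusted p = 0.35).

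Stat3, the transcription factor at the centre of the pathway, was highest in inhibitor-treated cells. Its main probe set read 8.31, 8.33 and 8.32 on released arrays, 8.74 and 8.82 on inhibitor-treated arrays and 8.38, 8.39 and 8.35 on DMSO arrays. Stat3 rose by 0.41 ± 0.06 with the inhibitor (limma adjusted p = 0.000656) and fell by 0.46 ± 0.06 on release (limma adjusted p = 0.000282), and both calls held under all 18 alternatives. The probe set 1426587_a_at gave 0.43 ± 0.09 and -0.42 ± 0.09. The probe set 1459961_a_at gave 0.46 ± 0.13 and -0.37 ± 0.13, with inhibitor-treated arrays at 5.50 and 5.02, and its first call ended without inhibitor-treated replicate 1 (adjusted p = 0.18). Its second call (limma adjusted p = 0.0473) ended under 9 of 16 alternatives, among them without any 1 array other than inhibitor-treated replicate 2 and released replicate 2, at adjusted p from 0.0599 to 0.446. The remaining Stat3 probe set passed in no comparison. These are transcript levels, and the arrays hold no measure of STAT3 phosphorylation.

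Socs3, the feedback inhibitor, was the gene of the 9 that moved furthest on release. Its main probe set read 9.35, 9.37 and 9.37 on released arrays, 10.47 and 10.45 on inhibitor-treated arrays and 10.04, 10.18 and 10.04 on DMSO arrays. The groups were separate, with the released arrays lowest and the inhibitor-treated arrays highest. Socs3 rose by 0.37 ± 0.07 with the inhibitor (limma adjusted p = 0.00192), fell by 1.09 ± 0.07 on release (limma adjusted p = 1.54e-06) and in released cells was below DMSO cells by -0.72 ± 0.06 (limma adjusted p = 0.000181). All 3 Socs3 probe sets were called in the same direction in each comparison. The main probe set and 1456212_x_at carry the array maker's suffix for probe sets whose probes may also match other transcripts. The third, 1416576_at, does not, and it read 8.06, 8.03 and 8.06 on released arrays, 9.15 and 8.94 on inhibitor-treated arrays and 8.69, 8.81 and 8.71 on DMSO arrays. Its changes were 0.31 ± 0.08, -0.99 ± 0.08 and -0.68 ± 0.07, and the first of these calls ended without inhibitor-treated replicate 1 (0.20, adjusted p = 0.131). The calls of the main probe set held under all 18 alternatives.

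The promoters of Socs3 and Bcl3 are shown because these were the genes of the 9 that differed between released and DMSO cells. Each is the 250 bases before a start listed by RefSeq on GRCm38.p6, minus strand, read 5′ to 3′ toward the start, and capitals mark a match to TTCNNNGAA, the motif of a STAT dimer. The Socs3 window is chr11:117969367-117969616, within the listed span of the gene (chr11:117966079-117970336). The Bcl3 window is chr7:19822756-19823005, which overlaps the end of the listed span (chr7:19808462-19822824).
Socs3: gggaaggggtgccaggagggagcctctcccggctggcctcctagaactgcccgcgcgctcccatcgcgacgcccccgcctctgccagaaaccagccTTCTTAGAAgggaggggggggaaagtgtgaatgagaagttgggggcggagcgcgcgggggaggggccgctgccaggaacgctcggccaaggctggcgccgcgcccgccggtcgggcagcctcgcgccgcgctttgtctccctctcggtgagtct
Bcl3: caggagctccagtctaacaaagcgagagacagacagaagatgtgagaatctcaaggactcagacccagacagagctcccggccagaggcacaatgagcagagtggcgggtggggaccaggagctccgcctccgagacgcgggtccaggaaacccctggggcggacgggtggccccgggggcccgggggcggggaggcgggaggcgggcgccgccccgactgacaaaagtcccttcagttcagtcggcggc

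All 9 genes had a RefSeq promoter, in 10 windows because Lifr has 2 listed starts. The motif TTCNNNGAA, which reads the same on both strands, occurred in 1 of the 9 genes, Socs3, with its first base 154 bases and its last base 146 bases before the start. It occurred in 7.02% of all 32851 windows of the same length. Its stricter form TTCCNGGAA, which lies within it, was in 0 of the 9 and in 0.913% of all windows, and CACGTG, the E-box that MYC and MAX bind, was in 0 of the 9 and in 6.02% of all windows. A match is a string of letters and not a measured binding site, and these windows leave out sites further away.

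Ptpn11, which encodes the phosphatase SHP2, passed in no comparison. Its main probe set read 8.20, 8.15 and 8.002 on released arrays, 8.14 and 8.13 on inhibitor-treated arrays and 8.01, 8.07 and 8.05 on DMSO arrays. The inhibitor-treated arrays lay just above the DMSO arrays and the released arrays overlapped both. The difference between inhibitor-treated and DMSO cells was 0.09 ± 0.08 (limma adjusted p = 0.403), with a 95% interval from -0.08 to 0.26. Changes larger than that interval, such as the 0.94 of Jak2, lay outside what these arrays allow for this probe set.

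Bcl3 moved opposite to Socs3 with the inhibitor and in the same direction as Socs3 between released and DMSO cells. Its single probe set read 7.24, 7.38 and 7.31 on released arrays, 6.84 and 6.83 on inhibitor-treated arrays and 7.71, 7.84 and 7.81 on DMSO arrays. No group overlapped another, and the released arrays lay midway. Bcl3 fell by 0.95 ± 0.07 with the inhibitor (limma adjusted p = 5.81e-06), rose by 0.47 ± 0.07 on release (limma adjusted p = 0.00059) and in released cells was below DMSO cells by -0.48 ± 0.07 (limma adjusted p = 0.00266). These calls held under all 18 alternatives, and with 1 probe set no second reading of this gene was used here.

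**Figure D2:**
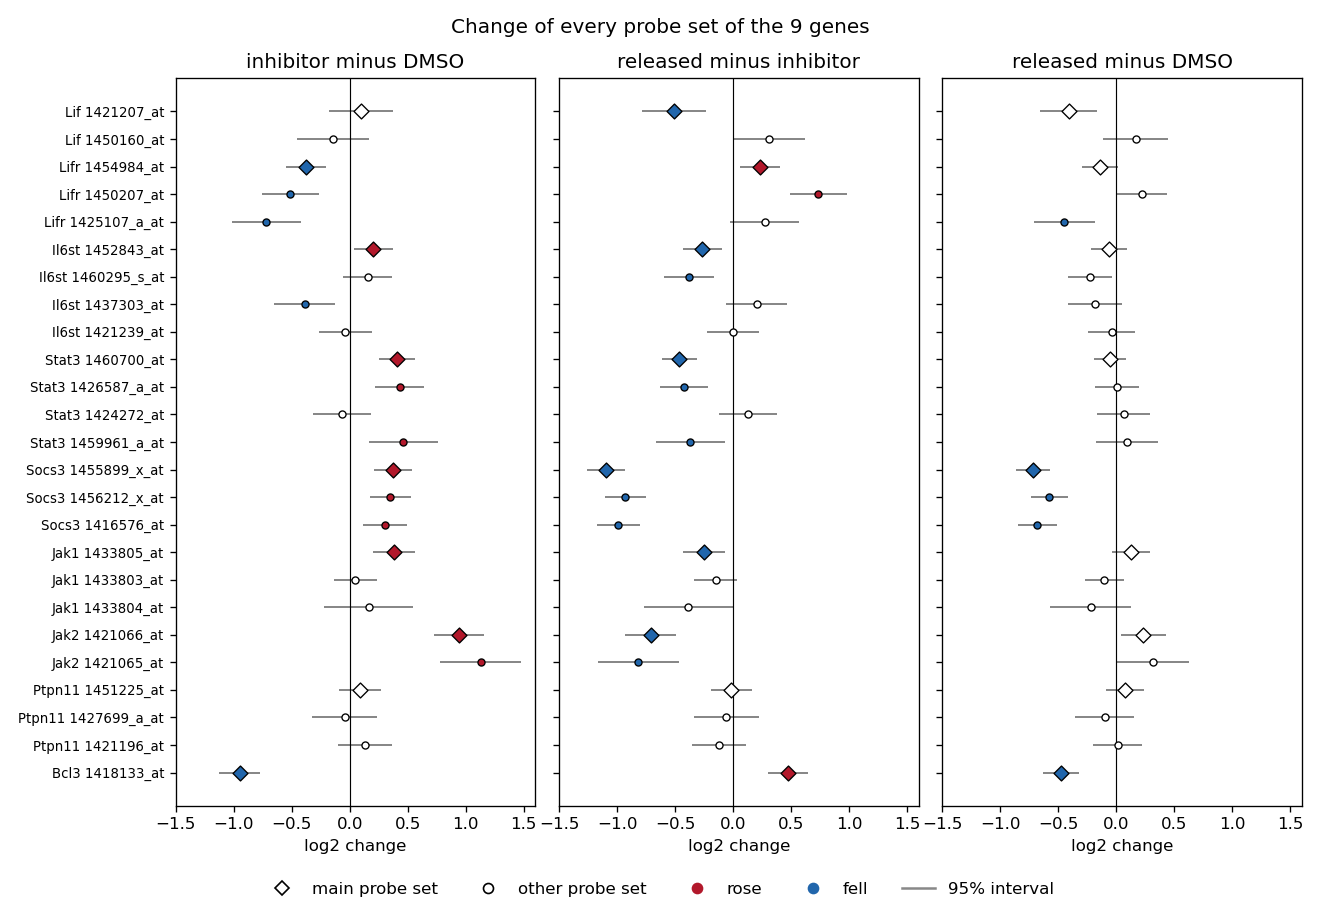
Log2 change (horizontal axis) of each of the 25 probe sets in the 3 comparisons, with 95% intervals from limma. Large diamonds are main probe sets, small circles the others, red rose, blue fell and white did not pass. The 3 probe sets of Socs3 and both of Jak2 fall together on release, whereas those of Il6st lie on both sides of 0 with the inhibitor.

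Across all 25 probe sets, 10 rose and 5 fell with the inhibitor, where 37.3% of all 34945 probe sets passed, 17.5% upward and 19.9% downward. On release 3 rose and 12 fell relative to inhibitor-treated cells, where 36.8% of all probe sets passed, 19.9% upward and 17% downward. Between released and DMSO cells 0 rose and 5 fell, where 6.63% passed, 3.61% upward and 3.02% downward. The arrays did not overlap for 19, 17 and 12 of the 25 probe sets in these comparisons, against 57.8%, 58.4% and 26.7% of all probe sets. Probe sets of the same gene are not independent readings. Of the 10 rises with the inhibitor, 3 were of Socs3, 3 of Stat3 and 2 of Jak2. Of the 5 falls between released and DMSO cells, 3 were of Socs3, 1 of Bcl3 and 1 of Lifr. Of the 16 probe sets that were not the main one of their gene, 7 passed in no comparison. These read between 3.12 and 6.47, and their changes ran from -0.39 to 0.31.

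The other genes of the pathway, in 5 lists, did not follow 1 direction. Of 57 listed genes 51 were analysed, and of these 13 rose, 11 fell and 27 did not pass with the inhibitor, with a median log2 change of -0.08. On release 11 rose and 16 fell, and between released and DMSO cells 5 rose and 5 fell. The last count was 5 in all without DMSO replicate 1 or 3 or without released replicate 1 or 2, and 6 without released replicate 3. The shares of all main probe sets given above apply here too.

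Among the other ligands and receptors of the interleukin-6 family, of 9 measured genes 0 rose and 3 fell with the inhibitor by their main probe sets. Clcf1, named after its values were seen, did not pass by its main probe set (-0.13), but 2 of its 3 probe sets rose (highest 0.74). On release 2 of the 3 fell (lowest -0.68). Osm, which encodes the ligand oncostatin M, read 6.23, 6.49 and 6.50 on released arrays, 6.90 and 6.64 on inhibitor-treated arrays and 7.27, 7.20 and 7.16 on DMSO arrays. It fell with the inhibitor (-0.44 ± 0.11), a call that ended without inhibitor-treated replicate 2 (adjusted p = 0.103). It fell further on release (-0.36 ± 0.11), which ended without inhibitor-treated replicate 1 (0.205) or released replicate 1 (0.0623), and released cells were below DMSO cells by -0.80 ± 0.10 (limma adjusted p = 0.00113). Ctf1, encoding the ligand cardiotrophin-1, fell with the inhibitor (-0.31 ± 0.09), a call that ended without inhibitor-treated replicate 2 (adjusted p = 0.171), DMSO replicate 1 (0.0565) or DMSO replicate 3 (0.052). Osmr, encoding the oncostatin M receptor chain, passed narrowly at a low signal (-0.41 ± 0.14, limma adjusted p = 0.0464), by 1 of its 3 probe sets. It lost its call under 11 alternatives. Among those were leaving out inhibitor-treated replicate 1 (0.058) or 2 (0.283), DMSO replicate 2 (0.131) or 3 (0.0704) and released replicate 3 (0.0611). Cntfr, encoding the receptor chain for ciliary neurotrophic factor, rose on release relative to inhibitor-treated cells (0.32 ± 0.07, limma adjusted p = 0.00656), by 1 of its 2 probe sets.

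Of the 7 other measured JAK and STAT genes, 1 rose and 1 fell with the inhibitor. The kinase gene Tyk2 rose by 0.46 ± 0.09 (limma adjusted p = 0.00215) and fell by 0.36 ± 0.09 on release, a call lost without inhibitor-treated replicate 1 (0.0514) or 2 (0.0502) and with the average of both probe sets (0.0917). Jak3, the kinase of lymphoid cytokine receptors, fell by 0.39 ± 0.08 with the inhibitor (limma adjusted p = 0.00289) and was as low in released cells (-0.43 ± 0.07 against DMSO, limma adjusted p = 0.0064). Both Tyk2 calls came from 1 of its 2 probe sets. Of the 7 genes, 5 did not pass with the inhibitor.

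Among 15 negative regulators, 3 rose and 1 fell with the inhibitor, and on release 2 rose and 5 fell, by main probe sets. Socs4, Ptpn2 and Socs6, named after their values were seen, did not pass with the inhibitor by theirs, though other probe sets did. Of 4 Socs4 probe sets 3 fell (lowest -0.85), of 4 for Ptpn2 2 fell (lowest -0.68), and of 3 for Socs6 1 rose (0.67). On release 3 Socs4 probe sets rose (highest 0.73) and 2 of Ptpn2 (highest 0.63). Socs2, which encodes a SOCS protein best known for restraining growth hormone signalling, read 9.78, 9.64 and 9.77 on released arrays, 10.52 and 10.48 on inhibitor-treated arrays and 10.18, 10.15 and 10.09 on DMSO arrays. The 3 groups were in the same order as for Socs3. It rose with the inhibitor (0.36 ± 0.07, limma adjusted p = 0.00288), fell on release (-0.77 ± 0.07, limma adjusted p = 1.77e-05) and was below DMSO in released cells (-0.41 ± 0.06, limma adjusted p = 0.00474). All 6 Socs2 probe sets passed in the first direction and all 6 in the second, but 2 of 6 in the last, which ended with their mean (-0.10, adjusted p = 0.341). Socs5 rose with the inhibitor (0.49 ± 0.10) and fell on release (-0.55 ± 0.10). Socs7 gave 0.28 ± 0.07 and -0.60 ± 0.07 by its main probe set, but another of its 4 probe sets was called the other way in both comparisons. The average of all 4 passed in neither (-0.047, adjusted p = 0.522, and -0.10, adjusted p = 0.163), and the first call also ended without inhibitor-treated replicate 2 (0.0585). Socs1 moved oppositely, by -0.34 ± 0.08 with the inhibitor (ended without inhibitor-treated replicate 2, adjusted p = 0.0861) and 0.29 ± 0.08 on release (ended without inhibitor-treated replicate 2, 0.15, or released replicate 2, 0.0635).

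Of the 5 measured adaptors of the SHP2 branch, 3 rose and 0 fell with the inhibitor, and on release 1 rose and 3 fell. Shc1, an adaptor that recruits GRB2 to receptors, read 8.17, 8.24 and 8.18 on released arrays, 8.80 and 8.72 on inhibitor-treated arrays and 8.29, 8.31 and 8.32 on DMSO arrays. The inhibitor-treated arrays stood above all others. It rose by 0.45 ± 0.07 (limma adjusted p = 0.000371) and fell by 0.56 ± 0.07 on release (limma adjusted p = 8.84e-05), and both of its probe sets were called each time. The docking protein gene Gab2 changed by 0.51 ± 0.08 and -0.70 ± 0.08, by 1 of its 3 probe sets. Sos1, which encodes a RAS exchange factor, changed by 0.49 ± 0.08 and -0.57 ± 0.08 by its main probe set. Of its 5 probe sets, 2 were called the other way in the first comparison and 1 in the second, and their average gave -0.08 and 0.05. Grb2 rose on release (0.30 ± 0.07) by 1 of its 2 probe sets, a call that ended without inhibitor-treated replicate 2. No adaptor passed between released and DMSO cells.

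**Figure D3:**
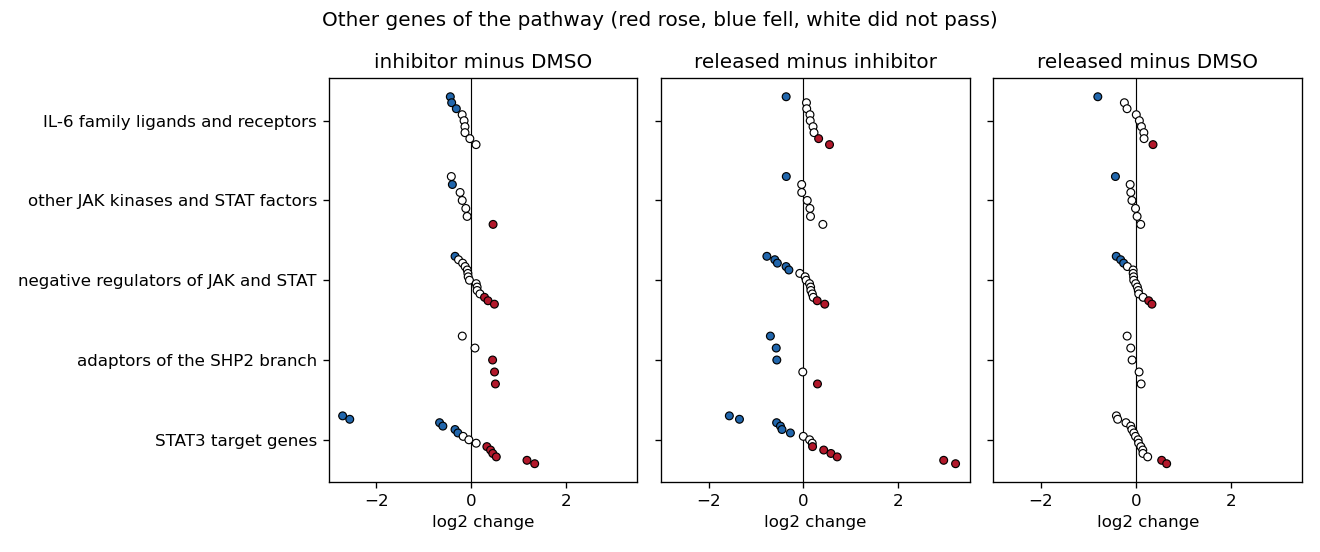
Log2 change (horizontal axis, same range in each panel) of the main probe set of each measured gene in 5 lists of other pathway genes, in the 3 comparisons. Each point is a gene, red rose, blue fell and white did not pass. In the list of STAT3 target genes 6 rose and 6 fell with the inhibitor, and 2 rose and 0 fell between released and DMSO cells.

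The STAT3 target list divided evenly: of 15 measured genes 6 rose and 6 fell with the inhibitor, 6 rose and 6 fell on release, and 2 rose and 0 fell between released and DMSO cells. Ccnd1, encoding cyclin D1, read 9.23, 9.18 and 9.16 on released arrays, 6.14 and 6.33 on inhibitor-treated arrays and 8.97, 8.88 and 8.97 on DMSO arrays. It had the largest fall of the list with the inhibitor (-2.71 ± 0.08, limma adjusted p = 1.38e-08). The homeobox gene Gbx2 read 6.48, 6.49 and 6.63 on released arrays, 3.23 and 3.43 on inhibitor-treated arrays and 6.07, 5.70 and 5.89 on DMSO arrays. It fell by 2.56 ± 0.11 with the inhibitor (limma adjusted p = 1.53e-07) and was above DMSO in released cells (0.65 ± 0.10, limma adjusted p = 0.00466). Pim1, a kinase gene that cytokine receptors induce, fell with the inhibitor (-0.66 ± 0.09) and rose on release (0.58 ± 0.09). Bcl6, encoding a transcriptional repressor, rose with the inhibitor (1.34 ± 0.13) and fell on release (-1.35 ± 0.13), by 1 of its 2 probe sets.

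Other members of this list are named here after their values were seen. Klf4, which encodes a pluripotency factor, read 11.13, 11.11 and 11.06 on released arrays, 11.59 and 11.74 on inhibitor-treated arrays and 11.31, 11.15 and 11.17 on DMSO arrays. It rose by 0.46 ± 0.08 with the inhibitor (limma adjusted p = 0.00116) and fell by 0.57 ± 0.08 on release, in both of its probe sets. Klf5 rose by 0.41 ± 0.07 and fell by 0.45 ± 0.07, in 2 of its 3 probe sets. Tfcp2l1 rose by 0.33 ± 0.06 (limma adjusted p = 0.0021) and fell by 0.28 ± 0.06 in 1 of its 3 probe sets, and with the mean of all 3 neither passed (0.03, adjusted p = 0.706, and -0.01, adjusted p = 0.935). The further rises with the inhibitor were those of Cebpd (1.18 ± 0.16) and Gadd45g (0.53 ± 0.08), and the further falls those of Junb (-0.59 ± 0.12), Pim3 (-0.34 ± 0.07) and Sall4 (-0.28 ± 0.07). The call of Sall4 ended without inhibitor-treated replicate 1 (adjusted p = 0.0558), and that of Cebpd rests on 1 of its 2 probe sets.

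**Figure D4:**
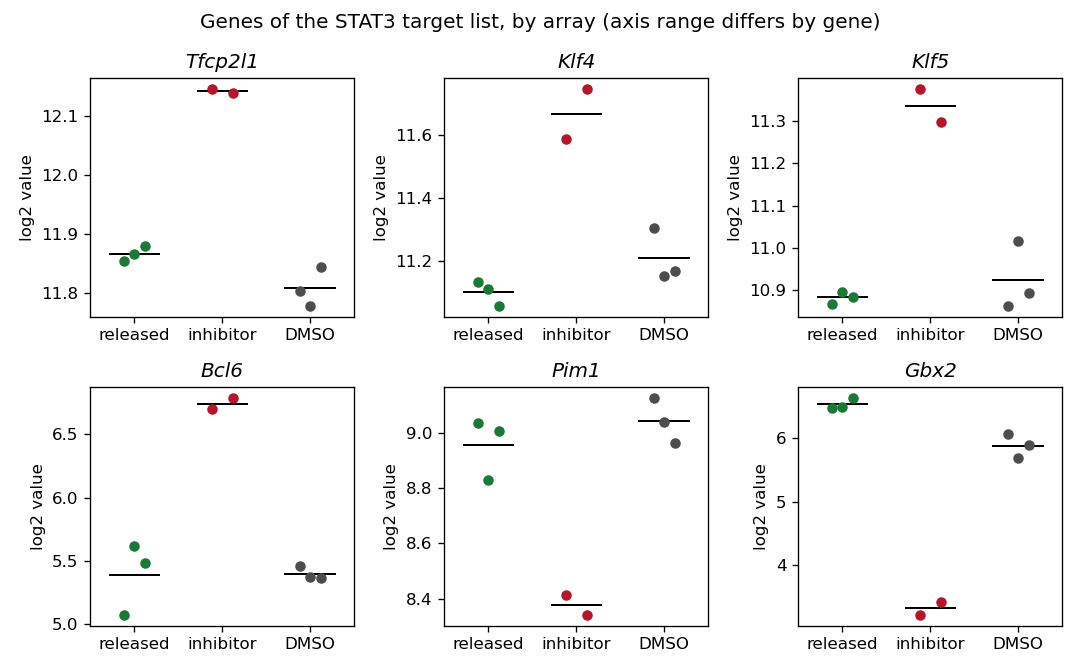
Log2 expression values (vertical axis, range differs by gene) of the main probe set of 6 genes of the STAT3 target list on 3 released, 2 inhibitor-treated and 3 DMSO arrays, with 1 point per array and a bar at the group mean. Tfcp2l1, Klf4, Klf5 and Bcl6 are highest and Pim1 and Gbx2 lowest on the inhibitor-treated arrays. Tfcp2l1, Klf4 and Klf5 were chosen after their values were seen, and in the whole list 6 genes rose and 6 fell with the inhibitor. Ccnd1, with the largest fall of the list, is not shown.

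Between released and DMSO cells, the 5 pathway genes that rose were Gbx2, Myc (0.54 ± 0.11), Il6ra (0.36 ± 0.09), Ptpn6 (0.34 ± 0.07) and Pias2 (0.27 ± 0.06), and the 5 that fell were Osm, Jak3, Socs2, Socs7 (-0.32 ± 0.06) and Socs6 (-0.26 ± 0.06). Il6ra encodes the interleukin-6 receptor chain, Ptpn6 the phosphatase SHP1 and Pias2 a SUMO ligase. Several were named after their values were seen, and Il6ra, Pias2 and Socs6 each lost the call under at least 9 of 18 alternatives. Without any 1 DMSO or released array Il6ra stood at adjusted p from 0.0524 to 0.123, Pias2 from 0.0503 to 0.0843 and Socs6 from 0.068 to 0.13. Socs6 also stood at 0.055 without either inhibitor-treated array. By probe sets, Il6ra and Ptpn6 were called in 1 of 2, Pias2 and Socs6 in 1 of 3 and Socs7 in 1 of 4. The call of Myc ended without DMSO replicate 1 (0.0679) or 3 (0.0527) or released replicate 1 (0.0632) or 3 (0.0541). That of Ptpn6 ended without DMSO replicate 1 (0.0603) or 3 (0.0531) or released replicate 2 (0.061), and that of Socs7 without released replicate 1 (0.0538) or 2 (0.0509) or with the average of its probe sets (0.0938).

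For the 8 genes that passed in at least 1 comparison, the genes with the nearest profile over the 8 arrays were sought, by the root mean square (RMS) difference of log2 values after each profile was centred on its own mean. Nearest to Socs3 were Mirg, a noncoding RNA gene of the imprinted Dlk1 and Meg3 region (RMS difference 0.08), and Ly6g6e (0.08), where the profile of Socs3 itself had an RMS spread of 0.45. Mirg changed by 0.32 with the inhibitor and by -0.81 between released and DMSO cells, against 0.37 and -0.72 for Socs3. Nearest to Jak2 were Tmtc1 (0.04) and Marveld1 (0.05), against a spread of 0.38. Nearest to Bcl3 were Rhpn2 (0.04) and Fblim1 (0.05), against a spread of 0.37. Stat3 was nearest to Tceal9 and Tmem101 (0.03 each, spread 0.19), Lifr to the RNA polymerase I subunit gene Polr1b (0.03) and to Helb (0.04), with a spread of 0.15, and Jak1 to Apobec1 and Atp6v0a1 (0.04 each, spread 0.16). Il6st lay nearest to Polr3d (0.02) and Pwwp2a (0.03) at a spread of 0.11, and Lif to Rdh11 and Vat1 (0.09 each) at a spread of 0.26. These are likenesses of pattern over 8 arrays, chosen out of 18193 genes, and carry no test.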

How the data were processed

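Total RNA of 8 samples was hybridised as biotin-labelled cRNA, 1 array per sample. The deposited log2 values, 1 per probe set and array, were made by the authors with RMA (background correction, quantile normalization, summary of probes); oligo 1.32.0 and limma 3.2.15 are named too, per the submitters' processing notes. Their range, 1.69 to 13.76, fits a log2 scale.

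Of 45101 probe sets, 34945 carry 1 gene symbol in the platform annotation, 932 several, 9160 none and 64 are controls. RefSeq (GRCm38.p6) held the gene numbers of 34741 and changed 0 symbols. No filter on level was applied, so all 25 member probe sets were tested.

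Comparisons used R 4.3.3 with limma 3.58.1 (lmFit, eBayes): 1 mean per group, 8 arrays, 5 residual and 4.86 prior degrees of freedom. Two-sided p-values were adjusted by the Benjamini-Hochberg method over 34945 probe sets per comparison, with a threshold of 0.05. The procedure was tested on simulated data. Python 3.11.15, pandas 2.3.3 and matplotlib 3.10.9 read tables and drew. Marker sums are log2 of summed linear values. Precision is limited by how many arrays there are, and read depth does not apply.

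The members and lists were chosen with earlier results of these data known. Named were all 9 members, at most 4 genes per pathway list (smallest p for inhibitor against DMSO among genes called in any comparison) and the 2 nearest profiles per called member. Further list genes were named after their values were seen, as stated where they appear. Of 57 genes in the pathway lists 51 were analysed, and the others are not reported here. Alternatives were 1 probe set a gene, the mean of probe sets, array weights, median centring, a second quantile normalization, leaving out probe sets below the 30th percentile of signal, robust fitting with a variance trend, fitting only the groups compared, a threshold of 0.01, a replicate block, and omission of single arrays.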

Additional observations from a re-analysis of the deposited data

How the results depend on the processing

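Of 35 calls of member probe sets, 24 kept direction and call under every alternative tried, and 34 kept their direction. The exception in direction was Il6st with the inhibitor, at -0.018 with the mean of its probe sets. The count of members called with the inhibitor was 7 and ran from 5 to 7. On release it was 8, was 5 at an adjusted p under 0.01, and ran from 5 to 8 without single arrays. Between released and DMSO cells it was 2 and ran from 2 to 3, the third being Jak2 with the mean of probe sets and Lif otherwise. The count of pathway genes between released and DMSO cells was 10, was 4 at an adjusted p under 0.01, and ran from 5 to 9 without single arrays.

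With the mean of probe sets the sign turned for Lif with the inhibitor (-0.021), for Jak1 (-0.067), Ptpn11 (-0.0056), Stat3 (0.026) and Klf5 (0.049) between released and DMSO cells, for Socs7 (-0.047) and Sos1 (-0.084) with the inhibitor and for Sos1 (0.054) and Esrrb (0.021) on release. None of these passed in that fit. With median centring the Stat3 probe set 1426587_a_at gave -0.013 between released and DMSO cells. Without single arrays it ran from -0.034 to 0.080, and Ptpn11 on release ran from -0.058 to 0.042. Differences near 0 in other pathway and marker genes also turned sign: Bcl6 between released and DMSO cells with array weights (0.0047) and Jak3 on release with repeated quantile normalization (0.023). Without single arrays, Jak3 on release ran from -0.064 to 0.015 and Ctf1 on release from -0.016 to 0.15. Between released and DMSO cells Bcl6 ran from -0.12 to 0.15, Gadd45g from -0.021 to 0.086, Klf5 from -0.072 to 0.0042, Socs5 from -0.12 to 0.039, and Zfp42 from -0.071 to 0.011. The cause was not tested.

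Replicate numbers are shared by the groups, but same-numbered arrays did not deviate together (correlations from -0.05 to 0.01), so the numbers were not taken as pairs. With the replicate block, 6, 6 and 3 members and 23, 25 and 8 pathway genes passed with the inhibitor, on release and between released and DMSO cells. Of all 34945 probe sets, 33.6%, 32.9% and 5.01% passed in that fit. The Ptpn11 change on release was then 0.011.

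Over all 34945 probe sets, 2318 passed between released and DMSO cells, against 4131 with a variance trend and robust fitting, 877 at an adjusted p under 0.01, and 1344 to 2025 without single arrays. Leaving out probe sets of low level gave 3057 of 24461 in that comparison. On release 36.8% of all 34945 probe sets passed, and 26.4% at an adjusted p under 0.01. Without released replicate 1, 2 or 3 the share on release was 33.5%, 33.1% or 32.5%. Having 2 inhibitor-treated arrays limits both comparisons that use them.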
